A study of Mus musculus with 8 samples.

Results

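The genes described here encode lysosomal enzymes and lysosomal membrane proteins of the mouse. They were chosen by name: 40 genes were listed, and every probe of the bead array whose platform annotation carries one of these symbols was taken. Of the 40 genes, 39 had a probe among the 16593 annotated genes of the table, with 62 probes of 25697 in all. Npc1 was not analysed here. Of the 39 genes, 36 were detected well enough to be tested (52 probes), and 3 were not. Ctsc and Ctss encode cathepsins and Gla encodes an alpha-galactosidase, and none of them was kept.

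Expression was measured on 8 arrays of carotid vascular smooth muscle cells, cultured as primary cells from male C57bl6 mice. All cells lacked PMCA4, a calcium pump of the plasma membrane whose gene is Atp2b4. The 4 knockout arrays hold such cells as they were, and the 4 rescued arrays hold knockout cells that received PMCA4a cDNA, a splice form of the pump, by electroporation. Both populations were synchronized with serum, then given PDGF-BB together with serum, and collected in late G1/S, so that the design asks which transcripts differ once the pump is put back. Cells electroporated without PMCA4a were not analysed here, so electroporation and PMCA4a cannot be told apart. Nothing in the labels ties the replicates to different cultures or mice, and the p-values therefore cover the variation among these 8 samples, part or all of which could be technical.

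Between 12223 and 12873 probes were detected per array. The 1 tested Atp2b4 probe (ILMN_1217742) stood at log2 intensities of 5.25, 5.73, 5.69 and 5.47 on the rescued arrays and 5.82, 5.58, 5.34 and 5.31 on the knockout arrays, and its other 2 probes were not detected. The sources used here do not place these probes relative to the deletion or the cDNA, and the labels could not be checked by them. Of 9 smooth muscle markers on the array, Acta2 (smooth muscle actin) stood near the top of the scale at 15.83 in rescued and 15.87 in knockout cells, while Cnn1 and Lmod1 were not detected on any array and Myh11 was detected on 1. Rescued replicate 3 stood apart in the summed linear level of adventitial fibroblast markers. The sum was 18136 there and 2890 to 4664 on the other rescued arrays, against 8070 to 9192 on the knockout arrays. Dcn and Dpt were the highest of these markers on rescued replicate 3 (log2 13.35 and 12.05), above every knockout array. Pdgfra, Gsn and Cd34 stayed below every knockout array there, and Pi16 lay within the knockout range. Without this array 3 lysosomal genes rose and 11 fell, as with it, and 13 of the 14 calls reported below were kept. Calls that changed without it are named.

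Lysosomes are acidic organelles in which hydrolases digest proteins, glycans, glycosaminoglycans, lipids and nucleic acids delivered by endocytosis and autophagy. Most of the enzymes are glycoproteins made in the endoplasmic reticulum and sorted by mannose 6-phosphate receptors, while heavily glycosylated membrane proteins line the limiting membrane and a vacuolar ATPase pumps in protons. Many of these genes carry in their promoters a palindromic element, known as CLEAR, that holds the E-box core CACGTG and is bound by TFEB and related factors. In vascular smooth muscle, secreted cathepsins are known for digesting elastin and collagen of the vessel wall, and the lysosome also stores calcium.

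The promoters are shown because the core of this element is what many of the listed genes share, whether or not their transcripts differed. RefSeq promoter windows of assembly GRCm38.p6, from 250 bases before to 50 after each start, were available for 36 of the 40 genes (40 windows). The letters CACGTG, which read the same on both strands, occurred in 14 of these windows (35%), each of a different gene, against 7.15% of all 32851 promoter windows. The longer palindrome TCACGTGA, which contains the core, was found in 5 windows (12.5%, against 0.974% of all windows). The whole window is given for Cln3, the member with the smallest adjusted p. It lies at chr7:126583187-126583486 on the minus strand and holds the core at 2 places, in capitals.
Cln3: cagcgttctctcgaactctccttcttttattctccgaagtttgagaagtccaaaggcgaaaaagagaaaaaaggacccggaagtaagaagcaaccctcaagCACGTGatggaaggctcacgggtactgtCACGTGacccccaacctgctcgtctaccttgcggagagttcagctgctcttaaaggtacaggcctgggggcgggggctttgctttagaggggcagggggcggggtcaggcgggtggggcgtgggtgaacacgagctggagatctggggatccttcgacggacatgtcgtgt

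Short stretches around the core, in capitals, are given for the other 3 genes with a match that fell in rescued cells, and for the 3 with the lowest differences among the 9 matched genes that did not pass, chosen after their values were seen. The other 6 (Arsa, Ctsa, Ctsf, Gaa, Lamp1 and Sgsh) had log2 differences from -0.09 to 0.15. The stretches of the first kind lie at chr9:114401015-114401050 on the plus strand (Glb1), chr12:102439121-102439156 on the minus strand (Lgmn) and chr13:64370736-64370770 on the minus strand (Ctsl). Those of the second kind lie at chr7:142387905-142387940 on the minus strand (Ctsd), chr8:3500459-3500494 on the plus strand (Mcoln1) and chr11:101070006-101070041 on the plus strand (Naglu).
Glb1: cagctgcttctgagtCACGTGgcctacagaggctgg
Lgmn: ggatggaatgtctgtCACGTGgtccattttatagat
Ctsl: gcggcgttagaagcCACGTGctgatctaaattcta
Ctsd: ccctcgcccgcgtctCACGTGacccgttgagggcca
Mcoln1: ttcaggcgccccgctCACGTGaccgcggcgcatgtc
Naglu: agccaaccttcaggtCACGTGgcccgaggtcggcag

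Of the 14 genes with a match, 4 fell in rescued cells, 0 rose, 9 did not pass and 1 was not tested. Of the 22 genes whose window lacked these letters, 7 fell, 3 rose, 10 did not pass and 2 were not tested. Over all 8633 tested genes 18.9% fell and 21% rose. Whether genes with and without the letters differ in these shares was not tested. A match describes the letters in the window and does not show that a factor binds there.

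Lysosomal genes differed between the groups about as often as other genes did, and most of those that differed were lower in rescued cells. Of the 36 tested genes, 14 passed the threshold, an adjusted p under 0.05 over all probes in limma (38.9%, against 39.9% of all 8633 genes). Lower expression in rescued cells was found for 11 (30.6%, against 18.9% of all genes) and higher expression for 3 (8.33%, against 21% of all genes). The median log2 difference, rescued minus knockout, was -0.09 over the 36 genes, where it was 0.01 over all genes. With median scaling in place of quantile normalization it was -0.21, where the median of all probes was -0.03. Absolute log2 differences had a median of 0.23, against 0.22 over all genes. Only Ctsk differed by 2-fold or more as normalized (2.78% of members, against 6% of all genes). None passed a test for a change of more than 1.5-fold, adjusted over all probes. The unadjusted 95% intervals of Ctsk (-2.16 to -0.83) and Cln3 (-0.98 to -0.61) nevertheless lay beyond 1.5-fold. The 4 rescued and 4 knockout values did not overlap for 15 genes (41.7%, against 40.9% of all genes). All values below are normalized log2 intensities with an offset of 16, and in bulk RNA fewer cells of a type and less RNA per cell cannot be told apart.

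**Figure D1:**
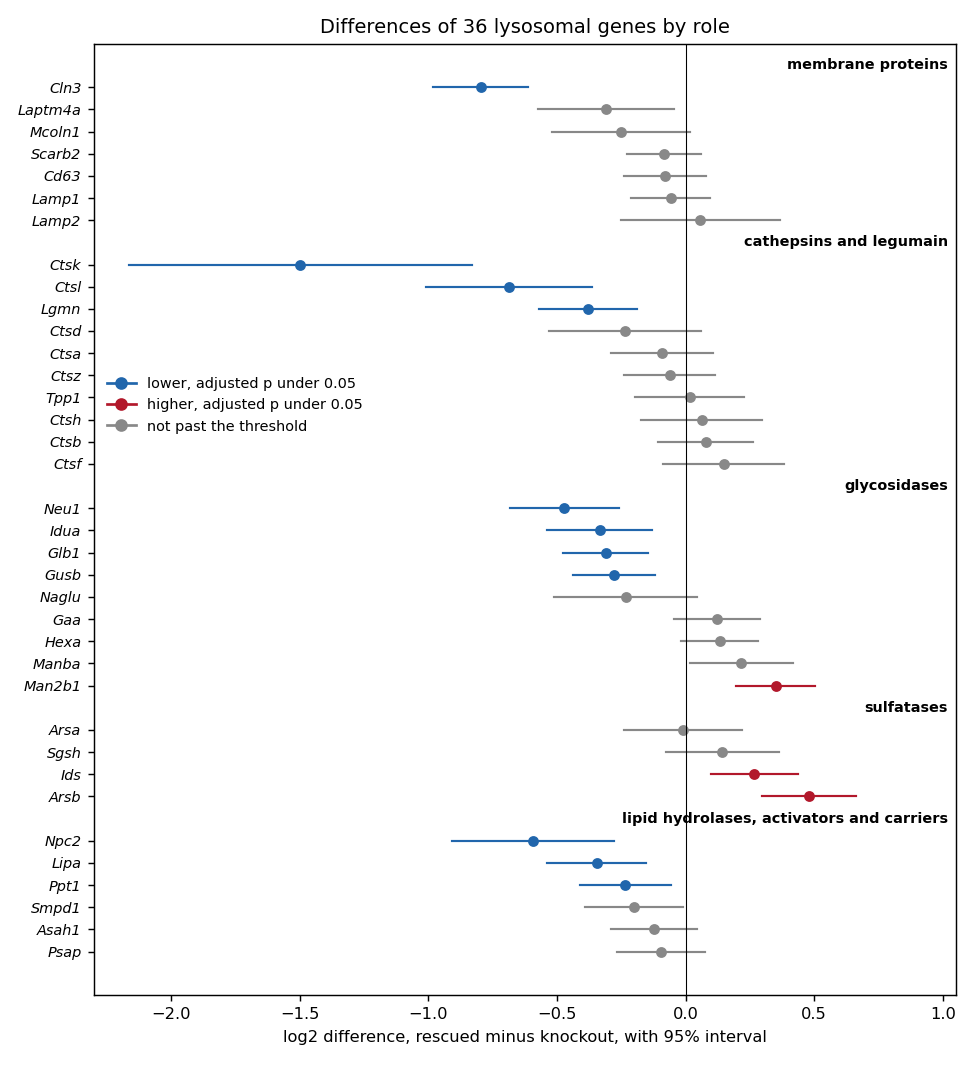
Log2 difference, rescued minus knockout (horizontal axis), with its unadjusted 95% interval for each of the 36 tested lysosomal genes, grouped by the role of the protein; blue and red mark genes lower and higher in rescued cells at an adjusted p under 0.05, grey the others. Cln3 stands alone to the left among the membrane proteins, Ctsk has the lowest value, and the 3 red points are Man2b1, Ids and Arsb.

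Among the membrane proteins, Cln3 fell (14.3%, against 18.9% of all genes) and the other 6 genes did not pass. Cln3 encodes a membrane protein of lysosomes and endosomes that is mutated in juvenile Batten disease. Its probe (ILMN_1214952) read 8.02, 8.18, 7.91 and 8.23 on the rescued arrays and 8.92, 8.85, 8.85 and 8.91 on the knockout arrays. Every rescued value lay below every knockout value, and the knockout arrays lay within a narrow range. The mean fell from 8.88 ± 0.04 to 8.08 ± 0.15 (SD, n = 4 each), 1.74-fold lower, with a log2 difference of -0.80 (SE 0.08, limma adjusted p = 8.60e-05). This was the smallest adjusted p of the 36 genes, and the call held under every alternative tried other than the 1.5-fold test, including without rescued replicate 3.

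Lamp1 and Lamp2, the major glycoproteins of the lysosomal membrane, differed by -0.06 and 0.06, with 95% intervals of -0.21 to 0.10 and -0.25 to 0.37. The 4 Lamp2 probes ranged from -0.09 to 0.06. Cd63, a tetraspanin of late endosomes and lysosomes, differed by -0.08, and Scarb2, the receptor that carries glucocerebrosidase to the lysosome, by -0.09. Mcoln1, a calcium-permeable channel of the lysosomal membrane, differed by -0.25 (95% interval -0.52 to 0.02, adjusted p = 0.128). Its rescued arrays overlapped the knockout arrays, and it passed without rescued replicate 2 (adjusted p = 0.0442). Laptm4a, a small transmembrane protein of late endosomes, read 12.35, 12.45, 12.89 and 12.65 on the rescued arrays and 13.03, 12.87, 12.80 and 12.88 on the knockout arrays. The groups overlapped at rescued replicate 3, and the difference of -0.31 (adjusted p = 0.064) passed without that array (-0.41, adjusted p = 0.00736). Laptm4a passed under 6 of 21 alternatives, among them median scaling, an intensity trend and no background correction.

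Of the 10 proteases tested, 3 fell (30%, against 18.9% of all genes), 0 rose (against 21%) and 7 did not pass. After centring chromosomes 2 were lower (20%, against 18.5% of all genes). Ctsk encodes cathepsin K, the collagen-degrading cysteine protease best known from osteoclasts. Its probe (ILMN_2711163) read 5.07, 6.63, 5.23 and 5.32 on the rescued arrays and 6.90, 7.16, 7.09 and 7.08 on the knockout arrays. The groups did not overlap, but rescued replicate 2 lay well above the other 3 rescued arrays. The probe was not detected on 1 of the rescued arrays. The values of those 3 arrays lay near the lowest detected level of the rescued arrays (5.17 to 5.23). Ctsk fell from 7.06 ± 0.11 to 5.56 ± 0.72 (SD, n = 4 each), 2.82-fold lower (log2 difference -1.498, SE 0.30, limma adjusted p = 0.00348). Without rescued replicate 2 the difference was -1.86, and without background correction it was -0.72, still past the threshold in both cases. With a background correction that did not take the detection p-values it was -0.85, also past the threshold. Under these 2 background treatments the difference was less than 2-fold.

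Ctsl encodes cathepsin L, a cysteine endopeptidase that digests endocytosed proteins and also elastin and collagen. Rescued arrays read 5.40, 5.46, 6.01 and 5.52, and knockout arrays 6.34, 6.04, 6.31 and 6.45. Rescued replicate 3, the highest of its group, came close to the lowest knockout array, and the groups were separate by a small margin. The difference was -0.69 (SE 0.14, 1.61-fold lower, adjusted p = 0.00463), and -0.29 without background correction. The rescued mean of Ctsl, 5.60, lay near the lowest detected level of the rescued arrays (5.17 to 5.23). Lgmn encodes legumain, the asparaginyl endopeptidase that processes several cathepsins. It read 10.29, 10.46, 10.60 and 10.58 on the rescued arrays and 10.80, 10.97, 10.82 and 10.86 on the knockout arrays, with no overlap. It fell by 0.38 on the log2 scale (SE 0.08, adjusted p = 0.00635), a call lost when chromosomes were centred (-0.07, adjusted p = 0.427).

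The other cathepsin genes moved little. Ctsb, Ctsh and Ctsf, all cysteine proteases, differed by 0.08, 0.06 and 0.15, and Ctsz, a carboxypeptidase, by -0.06. Ctsd, the main aspartic protease of the lysosome, read 6.71, 6.67, 6.33 and 6.41 on the rescued arrays and 6.56, 6.65, 6.76 and 7.09 on the knockout arrays, where the groups overlapped (difference -0.24, adjusted p = 0.189). Tpp1, a tripeptidyl peptidase, differed by 0.02 (adjusted p = 0.919). Ctsa, the carboxypeptidase also called protective protein because it stabilizes Neu1 and Glb1, differed by -0.09 at its brightest probe. Of its 4 probes 1 passed (ILMN_3045359, -0.27), and all 4 values were below 0.

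**Figure D2:**
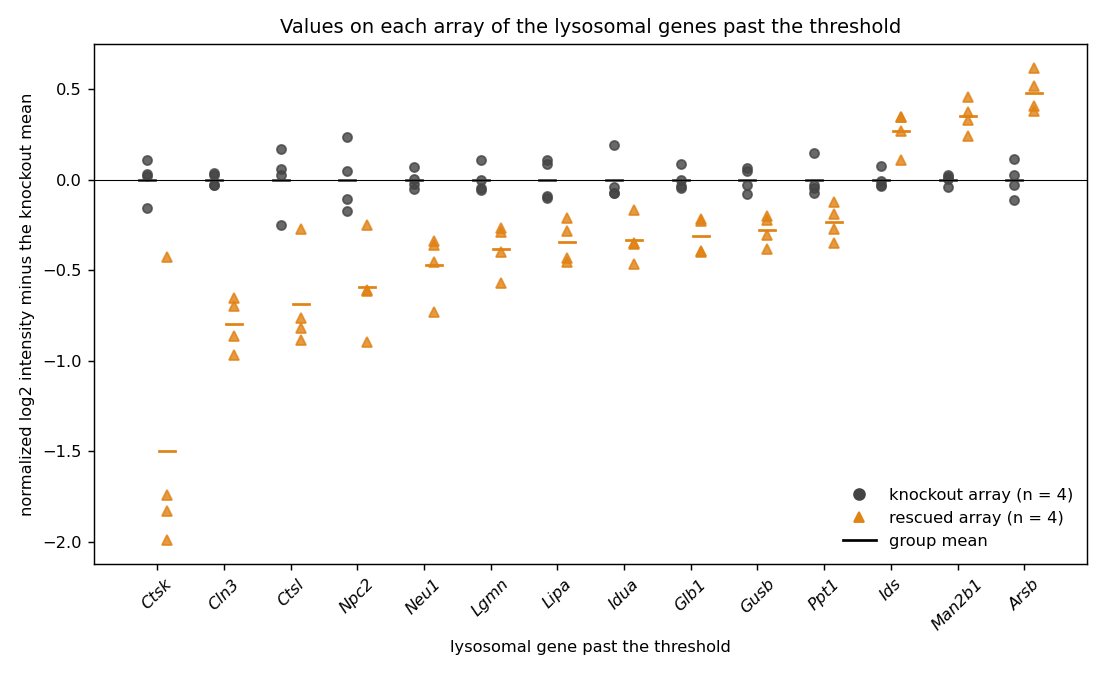
Normalized log2 intensity minus the knockout mean (vertical axis) for the 14 lysosomal genes past the threshold, ordered by difference; each circle is a knockout array, each triangle a rescued array, and short lines are group means (n = 4 each). Ctsk has 1 rescued array well above the other 3, and no gene has a rescued value inside the range of its knockout values.

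Glycosidases moved both ways, with 4 of 9 lower, 1 higher and 4 not past the threshold. The shares were 44.4% lower and 11.1% higher, against 18.9% and 21% of all genes. Neu1, the sialidase that removes sialic acid from glycoproteins, read 10.39, 10.36, 9.99 and 10.27 on the rescued arrays and 10.73, 10.67, 10.70 and 10.79 on the knockout arrays. Rescued replicate 3 was the lowest, and the groups did not overlap. Neu1 fell from 10.72 ± 0.05 to 10.25 ± 0.18 (SD, n = 4 each; log2 difference -0.47, SE 0.09, adjusted p = 0.00363). Glb1, the beta-galactosidase whose activity is used as a stain for senescent cells, read 9.77, 9.94, 9.76 and 9.95 on the rescued arrays and 10.16, 10.25, 10.12 and 10.13 on the knockout arrays. These groups were separate as well, with a difference of -0.31 (SE 0.07, adjusted p = 0.00874). Neu1, Glb1 and Ctsa encode the subunits of 1 enzyme complex, of which the first 2 fell and Ctsa did not pass.

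Gusb, the beta-glucuronidase, read 12.17, 12.07, 11.99 and 12.15 on the rescued arrays and 12.34, 12.42, 12.29 and 12.44 on the knockout arrays at its brightest probe. The groups were separate, and Gusb fell by 0.28 on the log2 scale (SE 0.07, adjusted p = 0.0121). A second probe fell alike (-0.30), whereas the third differed by 0.04, and the mean of the 3 probes did not pass (-0.18, adjusted p = 0.0559). Idua, which cleaves iduronic acid from dermatan and heparan sulfate, read 6.92, 7.04, 7.22 and 7.03 on the rescued arrays and 7.31, 7.57, 7.34 and 7.31 on the knockout arrays. Its groups did not overlap, and knockout replicate 2 was the highest. The difference of -0.33 (SE 0.09, adjusted p = 0.0166) was -0.22 without background correction and still passed.

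Man2b1, the acid alpha-mannosidase that trims mannose from glycoproteins, went the other way. It read 11.44, 11.35, 11.57 and 11.48 on the rescued arrays and 11.12, 11.11, 11.07 and 11.14 on the knockout arrays. All rescued values were above all knockout values, and Man2b1 rose by 0.35 (SE 0.07, 1.27-fold, adjusted p = 0.00308). Manba, the beta-mannosidase that acts after it on the same glycans, differed by 0.22 without passing (adjusted p = 0.0807). Hexa, the alpha subunit of hexosaminidase, read 11.53, 11.50, 11.59 and 11.65 on the rescued arrays and 11.50, 11.35, 11.42 and 11.47 on the knockout arrays, groups that did not overlap, yet its difference of 0.13 did not pass (adjusted p = 0.152). Gaa, which degrades glycogen, and Naglu, which acts on heparan sulfate, differed by 0.12 and -0.23, with adjusted p-values of 0.226 and 0.168 in limma.

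Of the 4 sulfatases, 2 rose (50%, against 21% of all genes), 0 fell (against 18.9%) and 2 did not pass. Arsb removes sulfate from dermatan and chondroitin sulfate. At its brighter probe (ILMN_1225374) it read 11.11, 11.09, 11.33 and 11.22 on the rescued arrays and 10.68, 10.74, 10.82 and 10.59 on the knockout arrays. The groups were well apart, and Arsb rose by 0.48 (SE 0.08, 1.39-fold, adjusted p = 0.00153). A second, dim Arsb probe, detected on 2 rescued and 3 knockout arrays, differed by -0.11, and the mean of both probes did not pass (0.19, adjusted p = 0.382).

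Ids, the iduronate sulfatase that acts on the same chains as Idua, read 11.87, 11.63, 11.79 and 11.87 on the rescued arrays and 11.49, 11.49, 11.60 and 11.52 on the knockout arrays. Rescued replicate 2 was just above the highest knockout array, and the other 3 lay higher. Ids rose by 0.27 (SE 0.08, adjusted p = 0.0198), a call that was lost without rescued replicate 1 or 4 or knockout replicate 1 or 2 (adjusted p from 0.0506 to 0.0536). Arsa, the sulfatase of myelin sulfatide, and Sgsh, which removes sulfate from heparan sulfate, differed by -0.01 and 0.14 and did not pass.

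All 6 tested genes for lipid hydrolases, their activators and carriers had values below 0, as did 48.7% of all genes. Of the 6, 3 fell (50%, against 18.9% of all genes), while after centring chromosomes 2 were lower (33.3%, against 18.5%). Npc2 encodes the soluble protein that binds cholesterol in the lysosome and hands it to the membrane protein NPC1. It read 9.67, 10.03, 9.39 and 9.67 on the rescued arrays and 10.33, 10.11, 10.52 and 10.17 on the knockout arrays. Rescued replicate 2 came closest to the knockout range without entering it. Npc2 fell from 10.28 ± 0.18 to 9.69 ± 0.26 (SD, n = 4 each), 1.51-fold lower (log2 difference -0.59, SE 0.14, adjusted p = 0.00861). This call too was lost when chromosomes were centred (-0.29, adjusted p = 0.162). Lipa, the acid lipase that frees cholesterol from its esters, read 9.30, 9.15, 9.38 and 9.13 on the rescued arrays and 9.48, 9.68, 9.69 and 9.50 on the knockout arrays. There was no overlap, and Lipa fell by 0.35 (SE 0.09, adjusted p = 0.0112).

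Ppt1, which removes palmitate from proteins, gave the weakest call. It read 9.43, 9.29, 9.21 and 9.37 on the rescued arrays and 9.51, 9.71, 9.49 and 9.53 on the knockout arrays, groups separated by a small margin. The difference was -0.23 (SE 0.08, adjusted p = 0.0424), and it was lost when any 1 array other than rescued replicate 1 was left out (adjusted p from 0.0582 to 0.112), and with the replicate number as a block (adjusted p = 0.0857). Psap, the precursor of the saposins that activate sphingolipid hydrolases, differed by -0.10, Asah1, the acid ceramidase, by -0.12, and Smpd1, the acid sphingomyelinase, by -0.20 (adjusted p from 0.091 to 0.352). Of 3 Smpd1 probes, 1 passed (ILMN_2728521, -0.27), all 3 values were below 0, and their mean passed (-0.25, adjusted p = 0.021).

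For the 22 tested genes that did not pass, the unadjusted 95% interval of the difference lay within 1.5-fold in either direction in all 22 cases, from -0.57 at the lowest to 0.42 at the highest on the log2 scale. Of these genes, 13 had values below 0 and 9 above. Replicates varied more on the rescued than on the knockout arrays: the median SD over the 36 genes was 0.13 against 0.08, and 27 of 36 genes (75%) had the larger SD on the rescued arrays. Over all genes these medians were 0.14 and 0.10, and the share was 67.2%. On each array the mean over the 36 genes lay between 10.29 and 10.36 for the rescued and between 10.47 and 10.49 for the knockout arrays. Of 9 members with more than 1 tested probe, 5 had probes with values on both sides of 0, and in none did one probe rise while another fell.

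Some of these differences moved with the chromosome on which the gene lies. Over the 391 tested probes of chromosome 12 the median difference was -0.31, and it was -0.19 over the 746 of chromosome 4, -0.18 over the 600 of chromosome 3 and 0.21 over the 512 of chromosome 15. Lgmn, Npc2 and Laptm4a lie on chromosome 12 and Ppt1 on chromosome 4. When each array was centred on the median of each chromosome, the calls of Lgmn and Npc2 were lost, as given above, and so was that of Ppt1 (-0.04, adjusted p = 0.709). Laptm4a, which had not passed, differed by -0.00 (adjusted p = 0.993). Ctsk, on chromosome 3, kept its call (-1.32, adjusted p = 0.00706), and so did Cln3 on chromosome 7, where the median of 871 probes was -0.02 (-0.78 after centring).

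Centring also added 2 calls. Manba, on chromosome 3, then rose by 0.40 (adjusted p = 0.0127), and Psap, on chromosome 10, fell by 0.20 on the log2 scale (adjusted p = 0.0494). After centring, 4 of the 36 genes were higher (11.1%, against 19.2% of all genes) and 9 lower (25%, against 18.5%), where 37.8% of all genes passed in either direction. What the chromosome medians reflect was not tested.

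**Figure D3:**
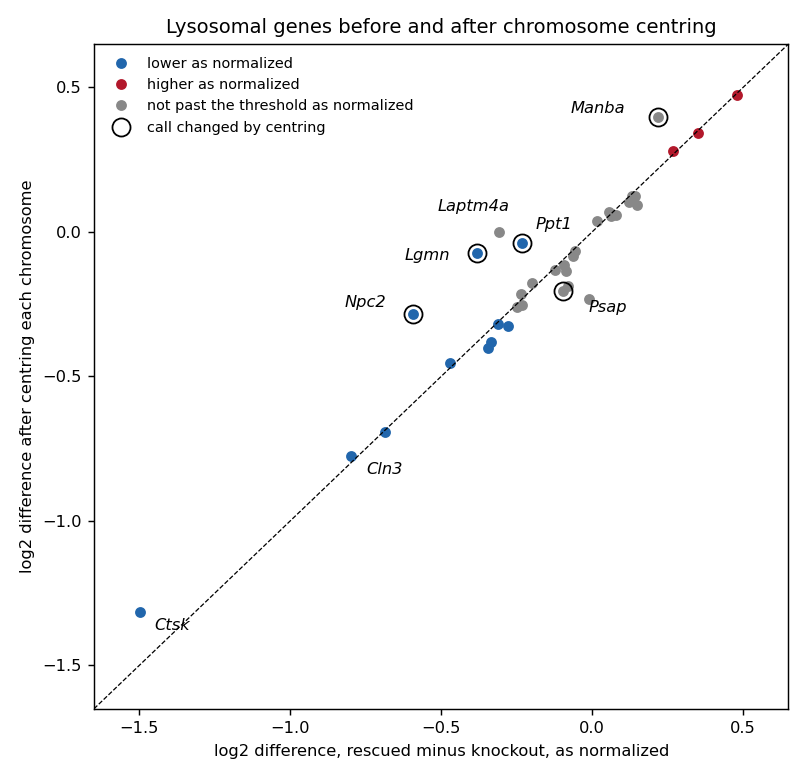
Log2 difference, rescued minus knockout, as normalized (horizontal axis) against the difference after centring each chromosome on each array (vertical axis) for the 36 lysosomal genes; the dashed line marks equal values, and rings mark the 5 genes whose call changed. Lgmn, Npc2, Ppt1 and Laptm4a lie above the line, closer to 0 after centring, while Cln3 lies close to it.

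Marker genes of other cell types also moved between the groups. Of 12 macrophage and leukocyte markers on the array, 7 were not detected on any array, among them Ptprc, Itgam and Adgre1, which define these cells. The summed linear level of the list, over all probes detected or not, ran from 1579 to 1751 on the rescued arrays. On the knockout arrays it ran from 869 to 1018. Over the kept probes alone these ranges were 1196 to 1352 and 492 to 625. Of the 5 kept markers, 3 rose and 1 fell (60% and 20%, against 21% and 18.9% of all genes). Among those kept, Lyz1 and Lyz2, which encode lysozymes, were higher in rescued cells, Lyz1 by a log2 difference of 2.00. Lyz2 was detected on 1 of the 4 knockout arrays, so its measured difference of 2.14 rests on values mostly not above background. Cd53 fell by 1.24, Cd14 rose by 0.90 and Aif1 differed by -0.15 without passing. Of 10 endothelial markers, Cdh5, Emcn, Pecam1 and Tie1 were not detected on any array, and the sum ran from 2216 to 3641 on the rescued and from 1631 to 1802 on the knockout arrays. Of the 5 kept, 4 rose (80%, against 21% of all genes). Vwf and Nos3, undetected on the knockout arrays, rose by at least 1.53-fold and 1.25-fold. Flt1 and Plvap rose by 0.80 and 0.76 on the log2 scale, and Flt1 had the highest mean of the 5 in rescued cells (11.04). Kdr differed by 0.01 without passing (adjusted p = 0.967 in limma). Of 8 adventitial fibroblast markers, 2 were not detected (Dpep1 and Lum). Among the 6 kept, 4 fell (66.7%, against 18.9% of all genes) and 2 did not pass. Pdgfra, Gsn and Pi16 fell, with log2 differences of -2.23, -1.73 and -1.07, although the groups overlapped for Pi16, while Dcn and Dpt differed by -0.36 and 0.24 without passing (adjusted p of 0.657 and 0.756 in limma). Tagln and Tpm2 among the smooth muscle markers fell by 1.43 and 0.66, and Smtn rose by 0.43. The part of other cell types in the lysosomal differences was not tested.

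Genes that serve the lysosome beyond the 40 members were read from 7 further lists. In 5 of them 36.8% to 41.2% of the tested genes were lower, against 18.9% of all genes. Higher genes made up 10.5% to 20% of these 5 lists, against 21% of all genes. After centring chromosomes the lower share was 12.5% for biogenesis and mTORC1 genes, against 18.5% of all genes. For the rest of these 5 lists it was 31.6% to 50%. Of 17 other hydrolases and activators, 3 rose and 7 fell, with a median log2 difference of -0.18. The hyaluronidase gene Hyal2 fell from 12.08 ± 0.05 to 11.32 ± 0.10 (SD, n = 4 each, log2 difference -0.76, limma adjusted p = 5.15e-05). Galc, the galactosylceramidase, fell by 0.62 (-0.31 after centring chromosomes). Its rescued mean of 5.51 lay near the lowest detected level of the rescued arrays (5.17 to 5.23). Epdr1, a ganglioside-binding protein of the lysosome, rose by 0.82 (adjusted p = 7.94e-05). Of 19 subunits of the vacuolar ATPase and its accessory proteins, 2 rose and 7 fell, with a median of -0.07. The membrane subunit gene Atp6v0a1 fell from 11.40 ± 0.05 to 10.67 ± 0.04 (log2 difference -0.73, adjusted p = 2.82e-05), and Atp6v1g1 and Atp6v0b, both on chromosome 4, fell by 0.46 and 0.38 (-0.27 and -0.18 after centring chromosomes).

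Of 21 other lysosomal membrane proteins and transporters, 3 rose and 8 fell, with a median of -0.21. Mfsd8, like Cln3 a gene of Batten disease, fell from 6.63 ± 0.20 to 5.66 ± 0.13 (SD, n = 4 each, log2 difference -0.97, limma adjusted p = 0.000142). Its rescued mean lay near the lowest detected level of the rescued arrays (5.17 to 5.23). Its difference without background correction was not followed. Sidt2, a membrane protein that carries nucleic acids, fell by 0.38, and Slc11a2, the iron transporter DMT1, rose by 0.85. Of 20 genes for sorting of lysosomal enzymes, 4 rose and 8 fell, with a median of -0.16. Sorl1, a sorting receptor, was undetected on all 4 knockout arrays and rose to 7.46 ± 0.47, at least 4.46-fold higher (adjusted p = 2.07e-05). The bound sets the rescued mean against the higher of the lowest detected level and the level of the probe on each knockout array. Its relative Sort1, or sortilin, fell by 0.60, and the clathrin light chain gene Clta by 0.48 (-0.28 after centring chromosomes). Igf2r, the large mannose 6-phosphate receptor, fell by 0.34. M6pr, the other mannose 6-phosphate receptor of the list, differed by -0.13 without passing (limma adjusted p = 0.340), and its groups overlapped. Gnptab and Gnptg of the same list rose by 0.25 and 0.23, and Nagpa fell by 0.39. The call of Gnptab was lost on centring chromosomes (0.14, adjusted p = 0.190). Igf2r, M6pr, Gnptab, Gnptg and Nagpa were chosen after their values were seen.

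Among 16 biogenesis factors and genes of mTORC1 recruitment to the lysosome, 3 rose and 6 fell, with a median of -0.10. After centring chromosomes 3 were higher and 2 lower (18.8% and 12.5%, against 19.2% and 18.5% of all genes). The Rag GTPases, which tether mTORC1 to the lysosomal surface, split. Rragb read 6.07 ± 0.05 in knockout cells and rose to 8.37 ± 0.22 (SD, n = 4 each; log2 difference 2.30, adjusted p = 5.69e-07), and Rragd rose by 1.08. Rragc fell by 0.37, a call that was lost on centring (-0.17, adjusted p = 0.0501). Rraga, named after its values were seen, was detected on 1 rescued and 3 knockout arrays and fell by 0.46 (limma adjusted p = 0.0266). Its groups overlapped, and its call was lost on centring as well (-0.27, adjusted p = 0.184). The related factors Tfeb, Mitf and Tfe3 are named after their values were seen. Tfeb was not kept, being detected on at most 1 array, Mitf was not detected on any, and Tfe3 fell by 0.22 (adjusted p = 0.0249).

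Of 21 autophagy genes, 2 rose and 4 fell (28.6% past the threshold, against 39.9% of all genes), with a median of -0.03. After centring chromosomes 0 were higher (against 19.2% of all genes) and 4 lower (19%, against 18.5%). Map1lc3a, which encodes an LC3 protein of the autophagosome membrane, fell from 10.75 ± 0.20 to 10.10 ± 0.05 (SD, n = 4 each; log2 difference -0.65, adjusted p = 0.000899), and Stx17, the syntaxin that fuses autophagosomes with lysosomes, and Wipi1 fell by 0.60 and 0.30. Of 4 cathepsin inhibitors none passed in limma, and 0 had an unadjusted p under 0.05. The 4 are named after their values were seen. Cst3, the secreted inhibitor cystatin C, differed by 0.04, and Cstb, its cytosolic relative, by 0.06. Serpinb1a and Serpinb6a differed by -0.42 and -0.17.

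**Figure D4:**
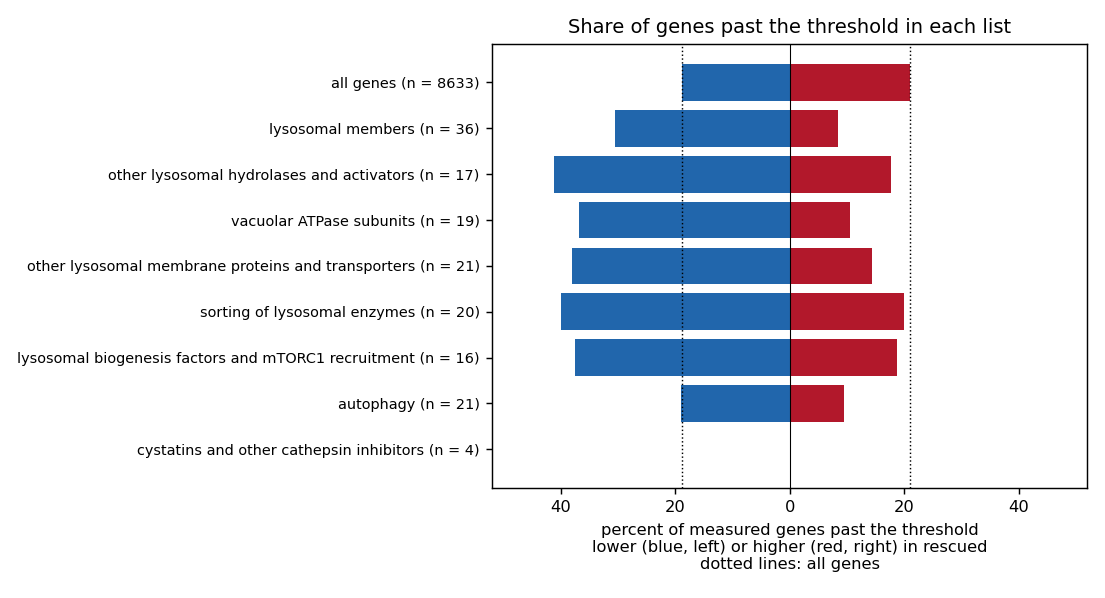
Percent of tested genes past the threshold in each list as normalized, without centring chromosomes (horizontal axis), lower in rescued cells to the left in blue and higher to the right in red. Dotted lines mark the shares over all genes. The 36 lysosomal members and 5 of the 7 further lists extend well beyond the left dotted line, autophagy genes reach 19%, about the line, and the cathepsin inhibitors have no bar.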

How the data were processed

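The authors deposited a table of bead intensities per probe and array on a linear scale, not normalized, with a detection p-value beside each, per the file headers. The authors also deposited log2 values per probe, and no source used here says how they were made. Their columns, with medians from 5.17 to 5.18, differed from the log2 values computed here by at most 0.0266, so scale and direction were the same and probes were not centred. No scanner software, slide or scan date is named in the sources used here, so no batch was tested.

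Intensities were corrected for background with neqc in limma 3.58.1 (R 4.3.3), which took the detection p-values, and then quantile-normalized (offset 16). Quantile normalization removes a shift of most transcripts together. Probes needed a detection p under 0.05 on 4 or more of the 8 arrays (12658 were kept), and all 36 tested members were detected in both groups. Groups were compared with lmFit and eBayes over all kept probes, with Benjamini-Hochberg adjustment and a threshold of 0.05. Where a gene had several kept probes, the one of highest mean stands for it. Intensities of different probes are not compared. The number of arrays limits the precision. Symbols are those of the platform annotation (1 symbol for 23978 probes, several for 0, none for 1719), and 23962 probes matched RefSeq GRCm38.p6 by gene identifier, used for chromosomes.

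Members, lists and alternatives were chosen with earlier results of these data known. Values on every array are given for up to 14 members that pass the threshold without overlap of the groups; for other lists, up to 3 genes past the threshold with the smallest p are named, and for marker lists up to 3 with the largest difference. Other genes named are members, markers named for their detection or to complete a list, or said to be chosen later. The fit was tested on simulated data. Same-numbered arrays of the groups did not deviate together (correlations from -0.08 to 0.00). Such values cannot show whether same-numbered samples were prepared together, and the main fit did not pair them.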

Additional observations from a re-analysis of the deposited data

Results flagged for a closer look

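Of 74 sets of 4 arrays (each group, for the 36 tested genes and for their mean), 2 contained a single array lying so far from the other 3 that Dixon's test at the 95% level singled it out. By chance about 1 set in 20 is singled out. Ctsk stood at 6.63 on rescued replicate 2, while the other 3 rescued arrays lay between 5.07 and 5.32. Idua stood at 7.57 on knockout replicate 2, while the other 3 knockout arrays lay between 7.31 and 7.34.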

How the results depend on the processing

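Leaving out 1 array at a time gave 12 to 14 lysosomal genes past the threshold (14 with all arrays), 2 to 3 higher and 10 to 11 lower, a median log2 difference from -0.12 to -0.078, and 4067 to 4940 probes of all (4906). More genes passed with median scaling in place of quantile normalization (17, of which 14 lower), with an intensity trend (17) and without background correction (16). Over all probes these settings gave 4934, 5138 and 5157 calls, against 4906 as reported. With median scaling 45.9% of the calls over all probes were higher, against 51.7% as reported. The median, -0.09 as reported, was -0.21 with median scaling, -0.13 with the mean of kept probes and -0.12 after centring chromosomes. At an adjusted p under 0.01, 9 genes passed, 7 of them lower, and 3037 of all probes; when a change of at least 1.5-fold was required, 0 genes passed, 0 higher and 0 lower, and 581 probes. The smallest adjusted p of that test was 0.116, for Ctsk. With the replicate number as a block 13 lysosomal genes passed, all of them among the 14, Ppt1 being lost, and 5 vacuolar ATPase genes instead of 9. After centring chromosomes 5 biogenesis and mTORC1 genes passed instead of 9. With 1 array left out, the counts ran from 5 to 8 for vacuolar ATPase genes, from 5 to 8 for biogenesis genes, from 0 to 1 for cathepsin inhibitors (1 without rescued replicate 3), from 5 to 7 for autophagy, from 8 to 12 for sorting, from 8 to 11 for other membrane proteins and from 10 to 11 for other hydrolases. None of the 36 lysosomal genes had a call of opposite sign under any alternative. Genes of the further lists were followed only as counts. Dim probes were limited by the background: without its correction Ctsk and Ctsl differed by -0.72 and -0.29. The cause of these changes was not tested.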
